A study of Mus musculus with 6 samples.

Results

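Liver burns fatty acids and turns part of the resulting acetyl-CoA into ketone bodies, and the genes examined here encode the enzymes and transporters of that route, together with the nuclear receptor PPARα and proteins that form peroxisomes. They were taken as every gene of a fixed list of 36 symbols that had a probe set of its own on the array, meaning a set of probes that the platform annotation pairs with that gene alone. This gave 35 genes with 54 probe sets, out of 12393 such genes and 22690 probe sets in all, and Acsl1, the remaining listed gene, was not analysed here. All 35 passed the filter on low signals, which left 9685 genes for the tests. The listed genes were chosen with earlier results of these data known, so counts over them describe the list.

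RNA of whole liver was profiled on the Affymetrix Mouse Genome 430A 2.0 array in wild-type male C57Bl/6 mice. Recombinant FGF19 was given to 1 group of mice and purified FGF15 to another, and a control group had vehicle, each through the jugular vein, with the livers taken 6 h later. Food was withheld from all 3 groups over those hours, so vehicle livers were fasted as well. Each group has 2 arrays, 6 in all. Whether the 2 arrays of each group stand for different animals is not stated in the labels, and the p-values therefore reflect the spread from array to array alone, which may be technical. The sources used here give neither ages nor doses, nor the makeup of the vehicle.

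Long-chain fatty acids are activated to acyl-CoA, carried into mitochondria as carnitine esters, and shortened there by repeated rounds of dehydrogenation, hydration, a second dehydrogenation and thiolysis. Peroxisomes shorten very long chains by a parallel route with their own enzymes, and hepatocytes condense surplus acetyl-CoA into acetoacetate and β-hydroxybutyrate during fasting. PPARα, which binds fatty acids, is the main activator of these genes in fasted rodent liver, and its coactivator PGC-1α (Ppargc1a) acts with it. FGF15 and its human orthologue FGF19 are ileal hormones of the fed state that signal to hepatocytes through FGFR4 and β-Klotho.

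Differences and folds were computed from log2(signal + 32). The genes for ketone body handling (Bdh1 and Acat1) and the peroxisomal enzymes Ehhadh and Acaa1b were higher with each hormone than with vehicle. So were the auxiliary enzymes for unsaturated chains (Ech1, Eci1, Eci2 and Decr1) and the acyl-CoA synthetase gene Acsl5. On each gene's probe set of highest mean, these rises were at most 1.54-fold with FGF19 and 1.55-fold with FGF15. Other Acat1 probe sets reached 1.98-fold with FGF19 (1424182_at) and 1.94-fold with FGF15 (1451271_a_at). Cpt1a, which encodes the rate-controlling carnitine palmitoyltransferase of the outer mitochondrial membrane, did not pass the test with either hormone. Of the 35 genes, 16 rose and 0 fell with FGF19, where 6.29% of all genes tested rose and 7.27% fell, and the other 19 did not pass the test (limma, adjusted p under 0.05 over all genes). At an unadjusted p under 0.05, 21 were higher and 4 lower with FGF19. With FGF15, 16 rose and 0 fell, where 5.91% of all genes rose and 6.67% fell, and at an unadjusted p under 0.05 the counts were 21 higher and 0 lower. The median log2 difference over the 35 genes was 0.25 with FGF19, against -0.07 over all genes tested, and 0.26 with FGF15, against -0.05 over all genes tested. Both sets of differences are taken from the same vehicle arrays and so are not independent of each other. Without vehicle replicate 1, the number that rose was 10 with FGF19 and 12 with FGF15, and without vehicle replicate 2 it was 11 and 11. Bdh1, Acat1, Ehhadh, Acaa1b, Ech1, Eci2, Acsl5 and Pex11a passed the test for each hormone under all 18 alternatives to the processing.

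**Figure D1:**
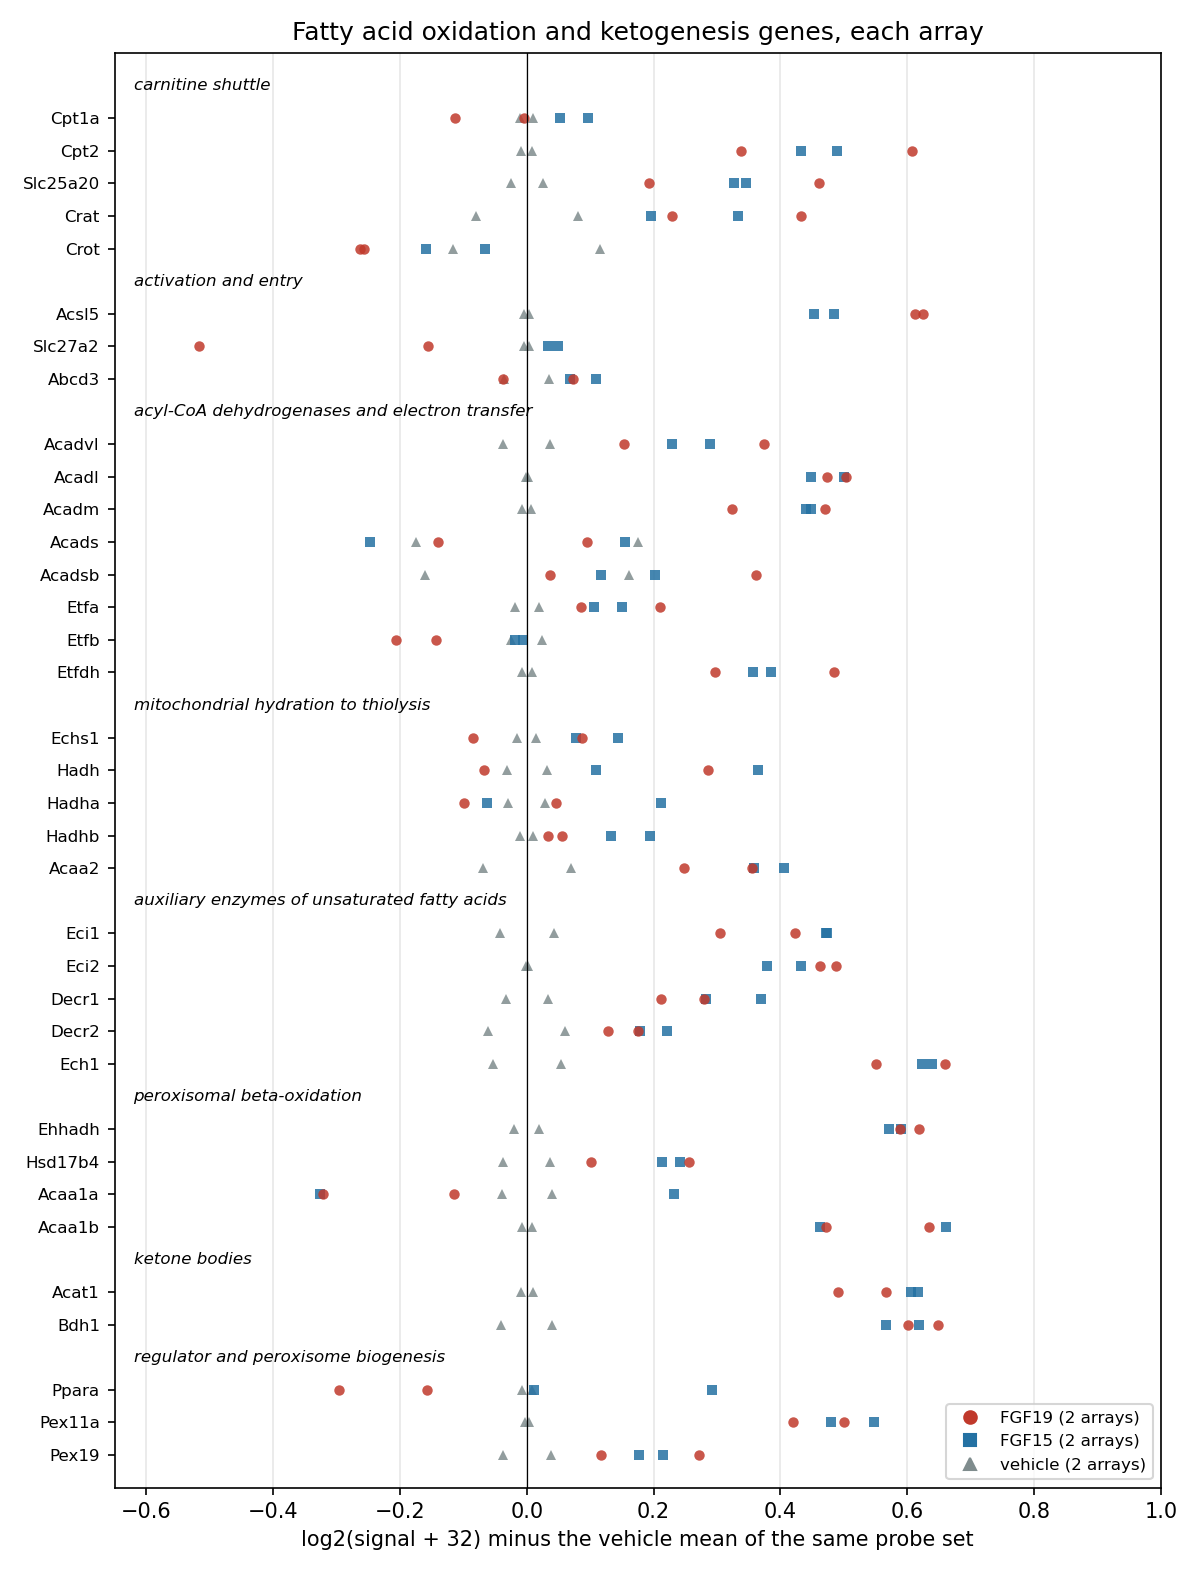
Each point is 1 array: the horizontal axis gives log2(signal + 32) minus the mean of the 2 vehicle arrays for the same probe set, and the 35 genes run down the page by role, with circles for FGF19, squares for FGF15 and triangles for vehicle. The circles and squares of Bdh1, Acat1, Ehhadh and Ech1 lie well to the right of their triangles, while those of Cpt1a, Hadha and Acads lie around them.

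Array by array, both FGF19 signals lay above both vehicle signals in 23 of the 35 genes and below both in 5, against 21.4% and 37.2% of all genes tested. Both FGF15 signals lay above both vehicle signals in 29 and below both in 0, against 22.2% and 32.7% of all genes tested. The scaling of the arrays bears on these counts. Median signals were 50.8 and 52.2 with FGF19, 55.2 and 51.3 with FGF15, and 61.4 and 59.4 with vehicle. Centring every array on its median shifted the median log2 difference of all genes to 0.07 with FGF19 and 0.07 with FGF15. It turned the split over all genes with FGF19 into 1214 higher and 329 lower, against 609 and 704 as deposited. With FGF15 the split became 1007 higher and 356 lower, against 572 and 646 as deposited. Under that centring 22 of the 35 genes rose with FGF19 and 21 with FGF15, and none fell with either.

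**Figure D2:**
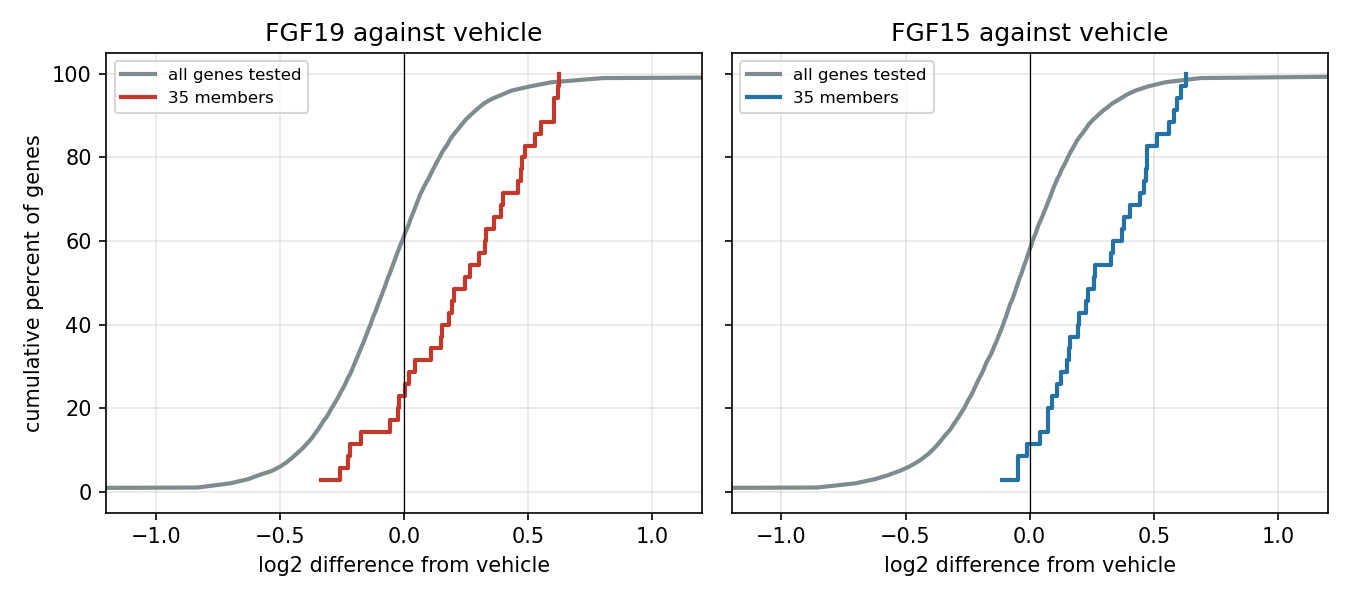
The curves give the cumulative percent of genes (vertical axis) at or below each log2 difference from vehicle (horizontal axis), for all 9685 genes tested and for the 35 listed genes, with FGF19 on the left and FGF15 on the right. The listed genes lie to the right of all genes in each panel, with 8 of 35 below 0 for FGF19 and 4 of 35 below 0 for FGF15, against 5935 and 5619 of all genes tested.

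Signals of some cell type markers differed between the hormone and vehicle arrays, and control signals differed on 1 array. Signals of 11 measured Kupffer cell and macrophage markers summed to 3534 and 3499 with FGF19, 3484 and 3608 with FGF15, and 6525 and 6427 with vehicle, and 9 of them fell with FGF19 and 10 with FGF15. Summed signals of 7 hepatocyte markers were 56093 and 72646 with FGF19, 65198 and 70294 with FGF15, and 77210 and 75550 with vehicle. Among these 7, 0 passed limma's test with FGF19, where 5 were lower at an unadjusted p under 0.05, and 1 fell with FGF15. The defining markers of hepatocytes were thus present on every array, while adipocyte markers summed to at most 45.2 and muscle markers to at most 126 on any array. Neutrophil markers summed to 421 and 450 with FGF19, 266 and 245 with FGF15, and 550 and 531 with vehicle, and of 3 tested 1 fell with FGF19 and 2 with FGF15. Stellate cell markers summed to 2152 and 2317 with FGF19, 2121 and 2216 with FGF15, and 2520 and 2607 with vehicle, with 2 of 7 (Col1a1 and Col3a1, collagen genes) lower with each hormone. Among 7 sinusoidal endothelial markers, 0 passed limma's test with FGF19, where 2 had an unadjusted p under 0.05, and 1 (Lyve1) fell with FGF15, with sums of 1300 and 1387 with FGF19, 1297 and 1269 with FGF15, and 1483 and 1514 with vehicle. Cholangiocyte markers summed to between 104 and 145 on all arrays. FGF19 replicate 1 stood apart in its controls, with an 18S rRNA signal of 32.3, against 4.25 to 5.82 on the other arrays, and a β-actin 3′ to 5′ ratio of 1.63, against 1.30 to 1.39. Without that array 15 of the 35 genes rose with FGF19, Decr1 being the gene lost. In RNA of whole liver, fewer cells of a type and less RNA per cell cannot be told apart, and what part cell makeup or RNA quality has in the differences of the listed genes was not tested.

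The promoters of 4 of these genes are shown for their motif content. Ehhadh and Pex11a are peroxisomal genes that rose. Acaa1b and Acaa1a are a closely related pair of thiolase genes, of which Acaa1b also rose and Acaa1a did not pass the test. Each is a RefSeq window of the GRCm38.p6 assembly running from 250 bases before to 50 bases after the gene's start, printed 5′ to 3′ on the strand of the gene. Capitals mark GGGTCA or AGGTCA, the hexamers that nuclear receptors such as PPARα bind in spaced pairs, and GGGCGG, the GC box, on either strand. Ehhadh is at chr16:21787785-21788084 on the minus strand, Pex11a at chr7:79743082-79743381 on the minus strand, Acaa1b at chr9:119157044-119157343 on the minus strand and Acaa1a at chr9:119341044-119341343 on the plus strand.
Ehhadh: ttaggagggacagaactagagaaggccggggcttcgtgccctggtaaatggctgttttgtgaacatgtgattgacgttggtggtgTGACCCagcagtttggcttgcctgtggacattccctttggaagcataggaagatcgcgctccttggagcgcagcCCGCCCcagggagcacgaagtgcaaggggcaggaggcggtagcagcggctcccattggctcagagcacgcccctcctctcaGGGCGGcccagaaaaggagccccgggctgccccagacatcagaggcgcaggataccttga
Pex11a: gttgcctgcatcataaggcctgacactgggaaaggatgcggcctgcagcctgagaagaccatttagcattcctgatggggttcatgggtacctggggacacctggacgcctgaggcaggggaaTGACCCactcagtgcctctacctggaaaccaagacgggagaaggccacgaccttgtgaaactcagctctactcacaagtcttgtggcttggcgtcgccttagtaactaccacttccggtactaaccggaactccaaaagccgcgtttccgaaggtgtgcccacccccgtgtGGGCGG
Acaa1b: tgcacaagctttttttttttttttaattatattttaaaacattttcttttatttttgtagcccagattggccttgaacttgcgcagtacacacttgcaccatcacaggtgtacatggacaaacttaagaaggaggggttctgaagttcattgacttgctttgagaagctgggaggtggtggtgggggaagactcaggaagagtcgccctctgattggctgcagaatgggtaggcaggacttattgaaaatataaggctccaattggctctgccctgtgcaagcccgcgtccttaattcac
Acaa1a: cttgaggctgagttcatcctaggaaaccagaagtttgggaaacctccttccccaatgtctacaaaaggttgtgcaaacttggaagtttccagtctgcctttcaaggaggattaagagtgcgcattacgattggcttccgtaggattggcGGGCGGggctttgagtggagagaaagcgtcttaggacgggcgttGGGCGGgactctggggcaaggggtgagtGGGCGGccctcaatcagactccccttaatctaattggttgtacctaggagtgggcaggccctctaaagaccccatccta
Ehhadh has 1 GGGTCA hexamer and 2 GC boxes in its window, and Pex11a has 1 of each. Acaa1b holds none of these motifs, whereas Acaa1a holds 3 GC boxes and no hexamer. The windows of Acaa1b and Acaa1a were aligned with 44 gapped columns, and of the other 278 columns 153 were identical (55.0%).

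Windows were found for 29 of the 35 genes, 31 windows in all, 13 of the 29 genes being among those that rose with each hormone. The motifs were searched on both strands. AGGTCANAGGTCA, the direct repeat with 1 base between its hexamers that PPARα and RXRα bind, was in 0 of the 31 windows, and in 0.0396% of 32851 windows of all genes. A looser form, AGGNCANAGGNCA, was in 0 of the 31 and in 0.381% of all windows. Both forms are so rare over all windows that 0 of 31 does not set these genes apart. Sequence outside the windows was not searched. GGGTCA was in the windows of 6 genes (Acsl5, Bdh1, Ehhadh, Etfdh, Pex11a and Slc27a2), 5 of which rose, and in 13.7% of all windows. AGGTCA was in the windows of 5 genes, of which Acadm alone rose, and in 16.3% of all windows. The GC box was in the windows of 23 genes and in 35.7% of all windows, and TATAAA was in 0 of the 31 and in 13.6% of all windows. A match to AGGTCANAGGTCA would also count as one to AGGTCA. These matches describe the letters in the windows and identify no bound site.

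Ketone body metabolism had 2 measured genes on the fixed list, and both rose with each hormone. Bdh1 (1452257_at), the mitochondrial dehydrogenase that interconverts acetoacetate and β-hydroxybutyrate, had signals of 1499 and 1550 with FGF19, 1462 and 1518 with FGF15, and 950 and 1006 with vehicle. Every hormone array lay above both vehicle arrays, with the FGF19 and FGF15 arrays overlapping. Its log2 difference was 0.62 ± 0.06 with FGF19 (SE, n = 2 arrays per group, limma adjusted p = 0.00019) and 0.59 ± 0.06 with FGF15 (adjusted p = 0.00028). A weaker Bdh1 probe set, 1426959_at, gave 0.65 with FGF19 (adjusted p = 0.0085 among all probe sets) and 0.38 with FGF15 (adjusted p = 0.080), so that for FGF15 it missed the threshold. Acat1 (1424183_at) encodes the mitochondrial acetoacetyl-CoA thiolase, which makes the precursor of ketone bodies in liver and also works in isoleucine breakdown. Its signals were 2637 and 2503 with FGF19, 2712 and 2732 with FGF15, and 1783 and 1759 with vehicle, again with no overlap between either hormone and vehicle. The log2 difference was 0.53 ± 0.06 with FGF19 (adjusted p = 0.00042) and 0.61 ± 0.06 with FGF15 (adjusted p = 0.00019). The other Acat1 probe sets moved further, at 0.98 with FGF19 and 0.88 with FGF15 for 1424182_at and at 0.98 and 0.95 for 1451271_a_at, and the mean of the 3 differed by 0.83 with FGF19.

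**Figure D3:**
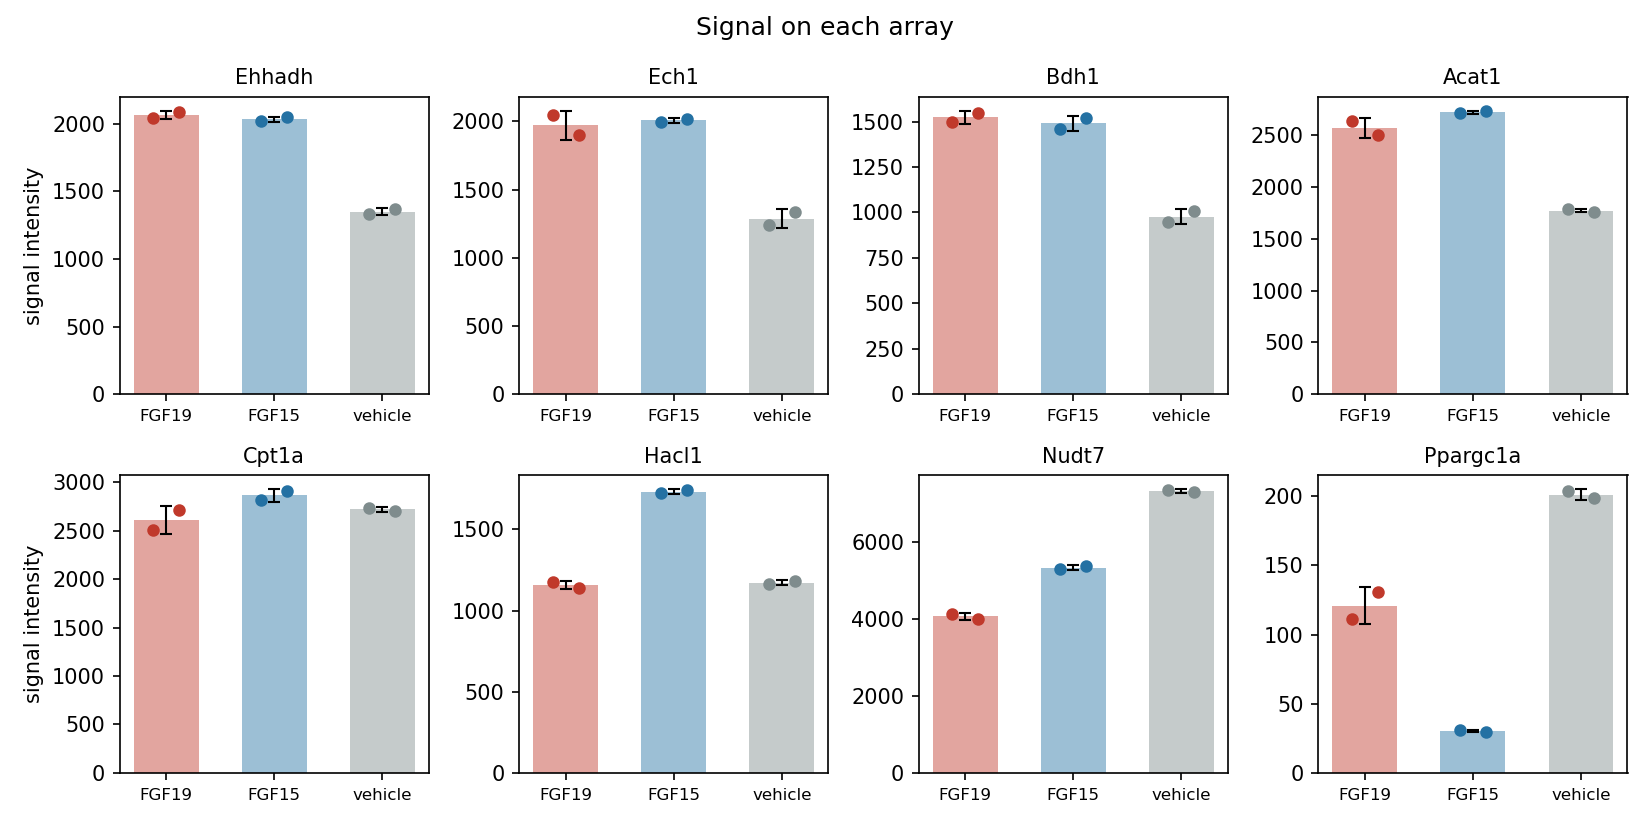
Points are the deposited signals of single arrays, bars their means and whiskers 1 SD (n = 2 arrays per group), on a linear axis that starts at 0, with FGF19, FGF15 and vehicle side by side in each panel. The hormone bars of Ehhadh, Ech1, Bdh1 and Acat1 stand at a like height above vehicle, those of Cpt1a do not, and Hacl1, Nudt7 and Ppargc1a have different heights for FGF19 and FGF15.

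In the peroxisomal pathway 2 of 4 listed genes rose with each hormone. Ehhadh (1448382_at), the bifunctional hydratase and dehydrogenase of the peroxisome, had signals of 2043 and 2086 with FGF19, 2018 and 2045 with FGF15, and 1329 and 1367 with vehicle. The hormone arrays were within a narrow band well above both vehicle arrays. Its log2 difference was 0.60 ± 0.06 with FGF19 (adjusted p = 0.00016), a 1.52-fold rise, and 0.58 ± 0.06 with FGF15 (adjusted p = 0.00023). Acaa1b (1424451_at), a peroxisomal thiolase found in rodents as a second copy beside Acaa1a, read 8022 and 8982 with FGF19, 7970 and 9157 with FGF15, and 5745 and 5810 with vehicle. Its hormone arrays spread more widely than those of Ehhadh but all exceeded vehicle, by 0.55 ± 0.09 with FGF19 (adjusted p = 0.0024) and 0.56 ± 0.09 with FGF15 (adjusted p = 0.0023). For Acaa1a the probe set used, 1456737_x_at, can bind related transcripts, and its dim signals were 229 and 194 with FGF19, 300 and 193 with FGF15, and 258 and 243 with vehicle, with no difference past the test. Probe sets that the annotation pairs with both thiolase genes were looked at after the values were seen. Of these, 1416946_a_at read 4571 and 4817 with FGF19, 4863 and 4996 with FGF15, and 3030 and 3151 with vehicle, log2 differences of 0.60 with FGF19 and 0.67 with FGF15. The other, 1416947_s_at, read 5696 and 6568 with FGF19, 5872 and 6191 with FGF15, and 4747 and 4759 with vehicle, differences of 0.36 and 0.34. Neither can tell the copies apart. Hsd17b4, the other peroxisomal bifunctional enzyme, had log2 differences of 0.18 with FGF19 (adjusted p = 0.13) and 0.23 with FGF15 (adjusted p = 0.067) on 1455777_x_at. Its more specific probe set 1417369_at gave 0.30 with FGF19 (adjusted p = 0.019 among all probe sets) and 0.30 with FGF15 (adjusted p = 0.022).

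Auxiliary enzymes, which rearrange the double bonds of unsaturated chains so that they can enter the common spiral, had 4 of 5 listed genes higher with each hormone. Ech1 (1448491_at), a dienoyl-CoA isomerase, read 2047 and 1897 with FGF19, 1995 and 2019 with FGF15, and 1237 and 1334 with vehicle. No hormone array came near a vehicle array, and the log2 difference was 0.60 ± 0.07 with FGF19 (adjusted p = 0.00036) and 0.63 ± 0.07 with FGF15 (adjusted p = 0.00028). Eci2 (1431012_a_at), an enoyl-CoA isomerase of peroxisomes and mitochondria, read 1821 and 1790 with FGF19, 1687 and 1753 with FGF15, and 1291 and 1289 with vehicle. Here both FGF19 arrays also exceeded both FGF15 arrays, though the difference between the hormones did not pass the test. Against vehicle Eci2 differed by 0.48 ± 0.06 with FGF19 (adjusted p = 0.00075) and 0.41 ± 0.06 with FGF15 (adjusted p = 0.0020).

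Eci1 (1418321_at), the mitochondrial enoyl-CoA isomerase, read 1300 and 1414 with FGF19, 1464 and 1465 with FGF15, and 1079 and 1015 with vehicle, so its highest arrays were those with FGF15. It rose by 0.36 ± 0.07 with FGF19 (adjusted p = 0.0067) and 0.47 ± 0.07 with FGF15 (adjusted p = 0.0016). Decr1 (1419367_at), the mitochondrial dienoyl-CoA reductase, read 1516 and 1444 with FGF19, 1519 and 1614 with FGF15, and 1272 and 1214 with vehicle. The groups did not overlap with vehicle, yet the rise was the smallest of the 16 with FGF19, at 0.25 ± 0.07 (adjusted p = 0.036), and was 0.33 ± 0.07 with FGF15 (adjusted p = 0.011). A dimmer Decr1 probe set, 1449443_at, gave -0.06 with FGF19 and 0.25 with FGF15, neither past the test, and the mean of both probe sets differed by 0.09 with FGF19 (adjusted p = 0.33). Leaving out vehicle replicate 1, vehicle replicate 2 or FGF19 replicate 1 ended the Decr1 call with FGF19 (adjusted p = 0.12, 0.20 and 0.13), and leaving out either vehicle array or FGF15 replicate 2 ended it with FGF15 (adjusted p = 0.057, 0.10 and 0.081). The Eci1 call with FGF19 ended without vehicle replicate 2 (adjusted p = 0.073). Decr2, the peroxisomal reductase, had differences of 0.15 with FGF19 (adjusted p = 0.17) and 0.20 with FGF15 (adjusted p = 0.086).

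Fatty acid activation and entry into the organelles had 3 measured genes on the fixed list, and of these Acsl5 alone rose, with each hormone. Acsl5 (1428082_at), a long-chain acyl-CoA synthetase, read 2684 and 2708 with FGF19, 2400 and 2455 with FGF15, and 1740 and 1750 with vehicle. The 3 groups did not overlap, with FGF19 highest and vehicle lowest. Its log2 difference was 0.62 ± 0.06 with FGF19 (adjusted p = 0.00012) and 0.47 ± 0.06 with FGF15 (adjusted p = 0.00079). Slc27a2, a very long-chain acyl-CoA synthetase and fatty acid transport protein (1416316_at), read 5440 and 6998 with FGF19, 8070 and 7986 with FGF15, and 7823 and 7780 with vehicle. FGF19 replicate 1 was the lowest array by far, and the log2 difference was -0.34 with FGF19 (adjusted p = 0.060) and 0.04 with FGF15 (adjusted p = 0.85). Without FGF19 replicate 1 the difference for FGF19 was -0.16 (adjusted p = 0.098), and without FGF19 replicate 2 it was -0.52 and passed the test (adjusted p = 0.00041). Abcd3, the peroxisomal transporter of branched and long acyl-CoAs, differed by 0.02 with FGF19 and 0.09 with FGF15, neither past the test.

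The carnitine shuttle had 2 of 5 listed genes higher with each hormone, and these sit at the inner mitochondrial membrane. Cpt2 (1416772_at), which turns acylcarnitine back into acyl-CoA in the matrix, read 1234 and 1018 with FGF19, 1090 and 1134 with FGF15, and 794 and 804 with vehicle. All hormone arrays exceeded vehicle, by 0.47 ± 0.09 with FGF19 (adjusted p = 0.0062) and 0.46 ± 0.09 with FGF15 (adjusted p = 0.0074). Slc25a20 (1423108_at), the carnitine and acylcarnitine carrier, read 933 and 1130 with FGF19, 1041 and 1027 with FGF15, and 798 and 827 with vehicle. Although these groups did not overlap with vehicle either, the rises of 0.33 ± 0.09 with FGF19 (adjusted p = 0.034) and 0.34 ± 0.09 with FGF15 (adjusted p = 0.032) were close to the threshold.

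Calls in the shuttle depended on single arrays. That of Slc25a20 with FGF19 ended without vehicle replicate 1, vehicle replicate 2 or FGF19 replicate 2 (adjusted p = 0.18, 0.11 and 0.16, with a difference of 0.19 in the last case), and that with FGF15 ended without any of the vehicle or FGF15 arrays (adjusted p = 0.11 to 0.18). The Cpt2 call with FGF19 ended without vehicle replicate 1 (adjusted p = 0.053), and that with FGF15 without either vehicle array or FGF15 replicate 2 (adjusted p = 0.050 to 0.062). A dim second Cpt2 probe set, 1447820_x_at, gave -0.08 with FGF19 and 0.00 with FGF15, and the mean of both did not pass, at 0.20 and 0.23. Slc25a20 had 1423109_s_at at 0.07 with FGF19 and 0.27 with FGF15, neither past the test, and the mean of both at 0.20 with FGF19 (adjusted p = 0.049). Cpt1a, on 1460409_at, read 2512 and 2712 with FGF19, 2820 and 2909 with FGF15, and 2739 and 2700 with vehicle. These groups lay close together, at log2 differences of -0.06 with FGF19 (adjusted p = 0.60) and 0.07 with FGF15 (adjusted p = 0.52). Its other probe sets, 1434866_x_at and 1438156_x_at, gave 0.35 and -0.23 with FGF19 and 0.37 and -0.03 with FGF15, none past the test, so they disagree in sign. Crat, the acetylcarnitine transferase, differed by 0.33 with FGF19 (adjusted p = 0.12) and 0.26 with FGF15 (adjusted p = 0.22). Crot, which exports medium chains from peroxisomes as carnitine esters, differed by -0.26 with FGF19 (adjusted p = 0.064) and -0.11 with FGF15 (adjusted p = 0.43). Crot passed the test as lower with FGF19 when vehicle replicate 1 was left out (-0.38, adjusted p = 0.044).

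Of the listed acyl-CoA dehydrogenases and the electron transfer proteins that take up their electrons, 3 of 8 rose with each hormone. Acadl (1448987_at), the long-chain dehydrogenase, read 2073 and 2115 with FGF19, 2035 and 2111 with FGF15, and 1481 and 1485 with vehicle. The hormone arrays were interleaved with each other and all above vehicle, by 0.49 ± 0.06 with FGF19 (adjusted p = 0.00061) and 0.47 ± 0.06 with FGF15 (adjusted p = 0.00079). Its other probe set, 1448988_at, read at most 19.2 on any array, and the mean of both differed by 0.09 with FGF19 and 0.03 with FGF15, neither past the test. Acadm (1415984_at), the medium-chain dehydrogenase, read 2528 and 2805 with FGF19, 2744 and 2762 with FGF15, and 2005 and 2025 with vehicle, and it too separated each hormone from vehicle. It rose by 0.40 ± 0.07 with FGF19 (adjusted p = 0.0041) and by 0.44 ± 0.07 with FGF15 (adjusted p = 0.0022). Leaving out vehicle replicate 1 ended the Acadm call with FGF19 (adjusted p = 0.051).

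Etfdh (1451084_at), which passes electrons from the flavoprotein to ubiquinone, read 1240 and 1085 with FGF19, 1155 and 1132 with FGF15, and 872 and 882 with vehicle. Every hormone array exceeded vehicle, by 0.39 ± 0.07 with FGF19 (adjusted p = 0.0071) and 0.37 ± 0.07 with FGF15 (adjusted p = 0.010). The Etfdh calls ended without vehicle replicate 1 or vehicle replicate 2 with FGF19 (adjusted p = 0.063 and 0.052), and with FGF15 also without FGF15 replicate 1 (adjusted p = 0.051 to 0.081 over the 3 arrays). Etfa and Etfb, the subunits of the flavoprotein that feeds Etfdh, did not pass, with Etfa at 0.15 and Etfb at -0.17 with FGF19, and Etfa at 0.13 and Etfb at -0.01 with FGF15. Acadvl, the very long-chain dehydrogenase of the inner membrane, missed the threshold at 0.26 with FGF19 (adjusted p = 0.057) and 0.26 with FGF15 (adjusted p = 0.066). It passed with FGF19 when FGF19 replicate 2 was left out (0.37, adjusted p = 0.011), and with FGF15 when either FGF19 array was left out of the shared estimate of the spread (adjusted p = 0.020 each). Acads, for short chains, and Acadsb, for short branched chains, had arrays of each hormone overlapping with vehicle, at -0.02 and 0.20 with FGF19 and -0.05 and 0.16 with FGF15.

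From hydration to thiolysis in the mitochondrion, Acaa2 alone of 5 listed genes rose, with each hormone. Acaa2 (1428146_s_at), the thiolase that releases acetyl-CoA from medium and long chains, read 4077 and 4395 with FGF19, 4403 and 4555 with FGF15, and 3600 and 3266 with vehicle. Its arrays did not overlap with vehicle, and it rose by 0.30 ± 0.07 with FGF19 (adjusted p = 0.024) and 0.38 ± 0.07 with FGF15 (adjusted p = 0.0080). The FGF19 call ended without either vehicle array or FGF19 replicate 2 (adjusted p = 0.062 to 0.19), the FGF15 call without vehicle replicate 2 or FGF15 replicate 2 (adjusted p = 0.10 and 0.068), and this probe set can bind related transcripts. The other Acaa2 probe sets gave smaller differences: 1428145_at had 0.19 with FGF19 (adjusted p = 0.093 among all probe sets) and 0.19 with FGF15 (adjusted p = 0.097), and 1455061_a_at had 0.19 with FGF19 (adjusted p = 0.084) and 0.27 with FGF15 (adjusted p = 0.026). Hadha and Hadhb encode the subunits of the mitochondrial trifunctional protein. Hadha differed by -0.03 with FGF19 and 0.07 with FGF15, neither past the test. Hadhb differed by 0.04 with FGF19 and 0.16 with FGF15 on 1437172_x_at, neither past the test, whereas 1426522_at gave 0.26 (adjusted p = 0.047 among all probe sets) and 0.30 (adjusted p = 0.027). Hadh, the short-chain hydroxyacyl-CoA dehydrogenase, did not pass on 1455972_x_at, at 0.11 with FGF19 and 0.24 with FGF15, but 1460184_at gave 0.28 (adjusted p = 0.023 among all probe sets) and 0.35 (adjusted p = 0.0082). A dimmer probe set of Hadh, 1436756_x_at, gave -0.40 with FGF19 and -0.03 with FGF15, neither past the test. Echs1, the short-chain hydratase, differed by 0.00 with FGF19 and 0.11 with FGF15, neither past the test.

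The last 3 genes are a regulator and peroxisome biogenesis factors. Pex11a (1449442_at), a membrane protein that drives elongation and division of peroxisomes, read 865 and 917 with FGF19, 949 and 903 with FGF15, and 637 and 640 with vehicle. It rose well clear of the vehicle arrays, by 0.46 ± 0.07 with FGF19 (adjusted p = 0.0016) and 0.51 ± 0.07 with FGF15 (adjusted p = 0.00087), and its FGF19 and FGF15 arrays overlapped. Its other probe set, 1419365_at, missed the threshold with FGF19, at 0.49 (adjusted p = 0.055 among all probe sets, arrays at 715 and 1061), and gave 0.57 with FGF15 (adjusted p = 0.031). Pex19, a chaperone for peroxisomal membrane proteins, differed by 0.19 with FGF19 (adjusted p = 0.14) and 0.20 with FGF15 (adjusted p = 0.15), and on 1448332_at it did not pass with either hormone. Ppara itself (1449051_at) read 610 and 675 with FGF19, 933 and 763 with FGF15, and 752 and 761 with vehicle. Its FGF19 arrays lay below, and its FGF15 arrays above, both vehicle arrays, at -0.23 (adjusted p = 0.15) and 0.15 (adjusted p = 0.35), and neither difference passed the test.

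FGF19 was then set against FGF15, a comparison that does not use the vehicle arrays as a baseline. No listed gene passed limma's test (0 of 35, where 4.3% of all genes tested did, 2.41% being higher and 1.89% lower with FGF19), 4 of the 35 had an unadjusted p under 0.05, and the count was 0 or 1 under the alternatives. On the probe sets of highest mean, the 4 were Ppara at -0.38, Slc27a2 at -0.38, Etfb at -0.16 and Acsl5 at 0.15. The log2 differences ran from -0.38 to 0.15 with a median of -0.05, against -0.02 over all genes tested. Both FGF19 arrays lay above both FGF15 arrays in 2 genes and below both in 11, against 20.1% and 25.8% of all genes tested. A p that misses the threshold does not show equal responses, so the intervals matter. On the same probe sets, the 95% interval of the difference stayed within 0.5 on either side of 0 (log2 scale) for 32 of the 35 genes. The widest limits over these 35 were -0.61 and 0.35. Dimmer probe sets of 3 genes reached beyond 0.5. Hadh on 1436756_x_at differed by -0.37 (-0.73 to -0.01) and Decr1 on 1449443_at by -0.31 (-0.52 to -0.11). Bdh1 on 1426959_at differed by 0.27 (-0.01 to 0.54). None of them passed limma's test among all probe sets (adjusted p = 0.31, 0.11 and 0.34).

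**Figure D4:**
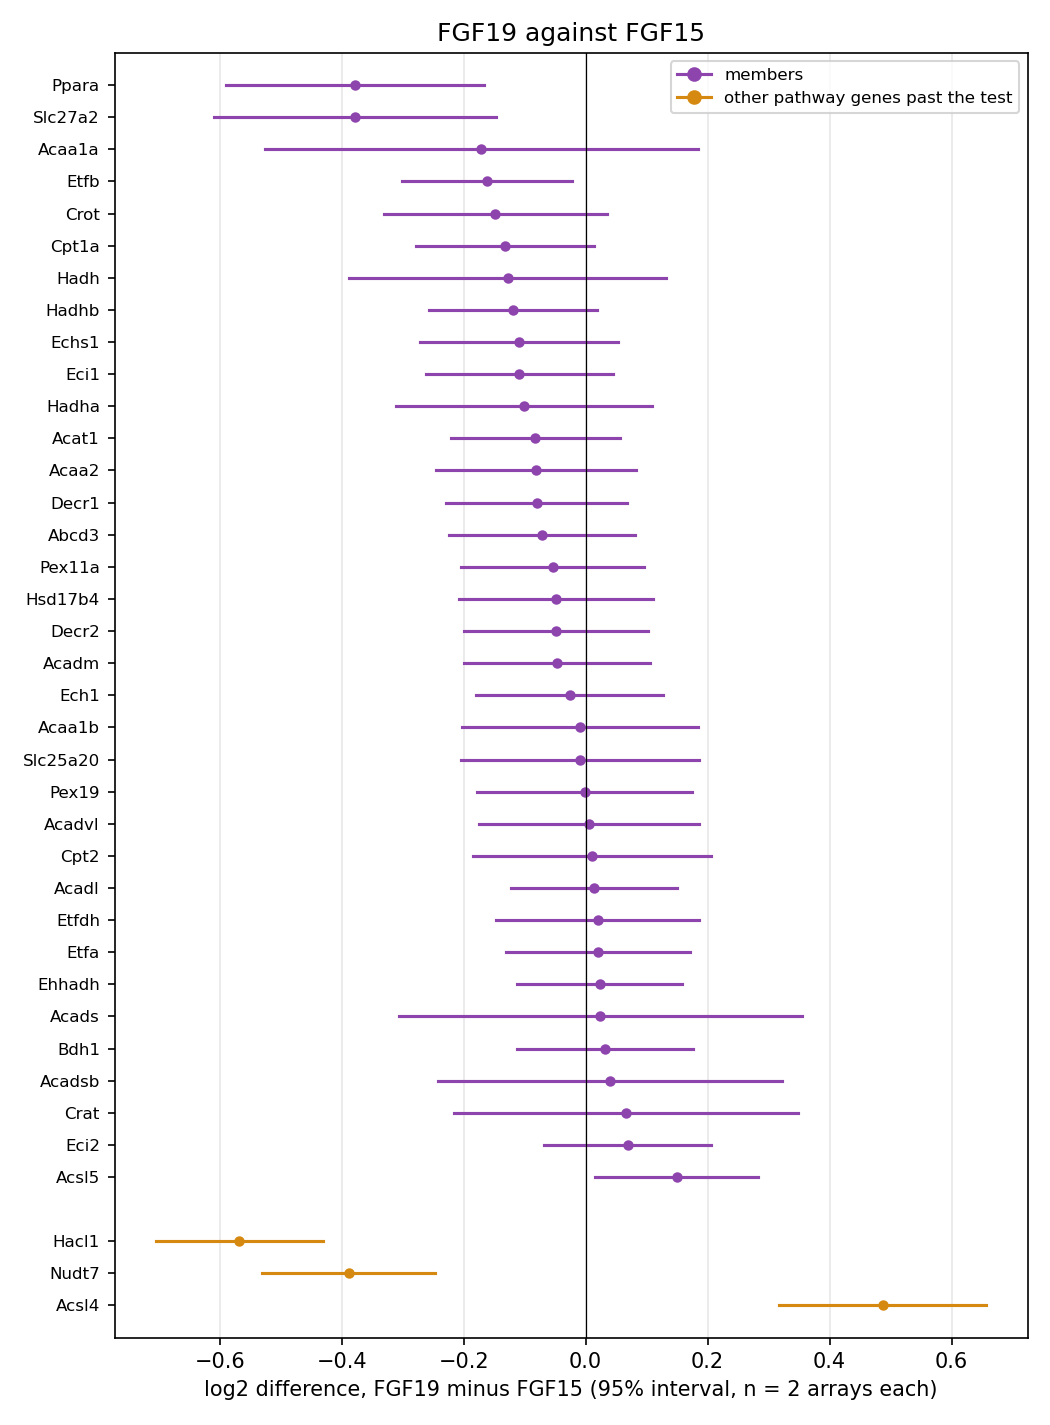
Points are log2 differences, FGF19 minus FGF15, and lines their 95% intervals from limma (n = 2 arrays per group), for the 35 listed genes in order of the difference and for 3 other pathway genes that passed the test. Most intervals of listed genes cross 0, those of Ppara, Slc27a2, Etfb and Acsl5 do not, and Hacl1, Nudt7 and Acsl4 lie farther out than most listed genes.

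For Ppara the interval ran from -0.59 to -0.17 (adjusted p = 0.057). Without FGF15 replicate 2 the difference was -0.52 and passed the test (adjusted p = 0.018), and without FGF15 replicate 1 it was -0.24 (adjusted p = 0.29). The Slc27a2 interval ran from -0.61 to -0.15 (adjusted p = 0.077), with -0.20 (adjusted p = 0.10) when FGF19 replicate 1 was left out and -0.56 (adjusted p = 0.00085) when FGF19 replicate 2 was. Acsl5, whose FGF19 arrays all exceeded its FGF15 arrays, had an interval of 0.02 to 0.28 (adjusted p = 0.24).

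Around the listed genes stands a wider list of 52 genes of the same and adjoining pathways. Among them are other oxidases, synthetases, propionyl-CoA enzymes, α-oxidation, peroxins and coenzyme A hydrolases. Of the 52 genes, 39 were measured and 13 were not analysed here. With FGF19, 8 of the 39 rose and 1 fell, where 6.29% of all genes tested rose and 7.27% fell. With FGF15, 13 rose and 2 fell, where 5.91% of all genes tested rose and 6.67% fell. Aldh3a2 (1415776_at), the fatty aldehyde dehydrogenase that finishes α-oxidation, had the largest rise of this wider list, with 1155 and 1107 with FGF19, 1295 and 1148 with FGF15, and 603 and 604 with vehicle. It changed by 0.87 ± 0.07 with FGF19 (adjusted p = 4.6e-05) and 0.98 ± 0.07 with FGF15 (adjusted p = 2.4e-05). Pex3 (1454044_a_at), needed to insert peroxisomal membrane proteins, read 291 and 271 with FGF19, 286 and 291 with FGF15, and 191 and 166 with vehicle. Its rise was 0.57 with FGF19 (adjusted p = 0.0030) and 0.61 with FGF15 (adjusted p = 0.0022), or 0.39 with FGF15 for the mean of its probe sets (adjusted p = 0.0099). Acad11, an acyl-CoA dehydrogenase for long saturated chains, rose by 0.46 with FGF19 (adjusted p = 0.0020) and 0.37 with FGF15 (adjusted p = 0.0078), the FGF15 call ending without vehicle replicate 1 or FGF15 replicate 2 (adjusted p = 0.10 and 0.056). Pcca and Pccb, the subunits of propionyl-CoA carboxylase, rose by 0.30 and 0.37 with FGF19 (adjusted p = 0.018 and 0.0065) and by 0.32 and 0.36 with FGF15 (adjusted p = 0.014 and 0.0072). The Pcca calls ended without either vehicle array or FGF19 replicate 1 for FGF19 (adjusted p = 0.065 to 0.13) and without any vehicle or FGF15 array for FGF15 (adjusted p = 0.055 to 0.11). The Pccb calls ended without vehicle replicate 2 (adjusted p = 0.062 with FGF19 and 0.068 with FGF15).

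In that wider list 3 genes separated the hormones. Hacl1 (1449047_at), the peroxisomal lyase of α-oxidation, read 1176 and 1141 with FGF19, 1724 and 1742 with FGF15, and 1161 and 1184 with vehicle. The FGF19 arrays overlapped with vehicle while the FGF15 arrays stood far above both, and FGF19 minus FGF15 was -0.57 ± 0.06 (adjusted p = 0.00056). Nudt7 (1431302_a_at), a peroxisomal hydrolase that degrades coenzyme A, was lower with each hormone. It read 4135 and 4007 with FGF19, 5287 and 5388 with FGF15, and 7354 and 7295 with vehicle, lowest with FGF19. It fell by 0.84 with FGF19 (adjusted p = 2.2e-05) and by 0.45 with FGF15 (adjusted p = 0.0013), and the hormones differed by -0.39 (adjusted p = 0.0062), which did not pass without FGF15 replicate 1 or FGF15 replicate 2 (adjusted p = 0.055 and 0.067). Acsl4 (1433531_at), an acyl-CoA synthetase that prefers arachidonate, read 744 and 698 with FGF19, 492 and 519 with FGF15, and 688 and 627 with vehicle. Its FGF15 arrays were lowest, FGF19 minus FGF15 was 0.49 (adjusted p = 0.0048), and its difference of -0.36 with FGF15 (adjusted p = 0.013) did not pass without vehicle replicate 1 or FGF15 replicate 1 (adjusted p = 0.12 and 0.065).

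Among 13 measured regulators of the pathway, 0 rose and 3 fell with FGF19, and 0 rose and 3 fell with FGF15, beside the shares of all genes tested given above. At an unadjusted p under 0.05 by limma, 1 was higher and 4 were lower with each hormone. Besides Ppargc1a, the related coactivator gene Ppargc1b fell past the adjusted threshold with each hormone (-1.19 with FGF19 and -0.99 with FGF15). So did the orphan receptor gene Esrra with FGF19 (-0.67) and the lipase gene Pnpla2 with FGF15 (-0.36). All 3 were named after their values were seen, and not every regulator past the unadjusted p is named. Ppargc1a (1460336_at) read 111 and 131 with FGF19, 31.0 and 29.7 with FGF15, and 204 and 198 with vehicle, the 3 groups being apart. It fell by 0.61 ± 0.12 with FGF19 (adjusted p = 0.0086), which no longer passed when either vehicle array or FGF19 replicate 1 was left out (adjusted p = 0.053 to 0.079). The Ppargc1a difference with FGF15 was -1.90 (limma adjusted p = 8.2e-06), and ran from -2.23 to -1.38 under the alternatives. FGF19 minus FGF15 was 1.29 ± 0.12 (adjusted p = 0.00022), or 0.81 for the mean of its probe sets (adjusted p = 0.0075). Pdk4, which encodes a kinase that turns off pyruvate dehydrogenase in fasting, belongs to the wider pathway list and not to the 13 regulators. It read 123 and 104 with FGF19, 56.2 and 69.4 with FGF15, and 53.2 and 71.9 with vehicle. It rose by 0.63 with FGF19 (adjusted p = 0.024), but not without vehicle replicate 1, FGF19 replicate 1 or FGF19 replicate 2 (adjusted p = 0.15, 0.16 and 0.059). With FGF15 the Pdk4 difference was 0.01 (adjusted p = 0.99), and FGF19 minus FGF15 was 0.62 (adjusted p = 0.053). Fgf21, a hepatic hormone of fasting, did not pass the test, at -0.04 with FGF19 (adjusted p = 0.92) and 0.19 with FGF15 (adjusted p = 0.61).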

How the data were processed

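The values were signal intensities deposited by the authors, with 1 linear value for each probe set on each array. Per the deposited values, the intensity of every array had been scaled to a mean of about 200.1 after trimming 2% at each end. The sources used here name neither the summarising software nor detection calls. Of 22690 probe sets, 20380 were paired with 1 gene, 691 with several, 1555 with none, and 64 were controls. 20351 were named through Entrez identifiers and 29 kept the platform symbol.

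Each gene was represented by its probe set of highest mean. A gene was left out where its mean log2 value lay below the 25th percentile of the probe sets that are not controls (a signal of 14.0). limma 3.58.1 in R 4.3.3 (lmFit, eBayes with an intensity trend) was run on log2(signal + 32) for all 6 arrays with group as the only term, with residual degrees of freedom of 3 and a prior of 6.83. Two-sided p-values were adjusted over 9685 genes by Benjamini-Hochberg, and genes rose or fell at an adjusted p under 0.05. Fold changes are on the log2(signal + 32) scale and understate those of dim genes. Values given "among all probe sets" come from a fit of the 16969 probe sets that are not controls and passed the filter. These include probe sets paired with several genes or with none. Arrays have no read depth, and their number limits the precision. The steps were tested on simulated data.

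All 36 listed genes are named, as are up to 6 genes of the wider pathway list with the smallest p among those past the test in each comparison, plus Ppargc1a, Pdk4 and Fgf21. Some further genes are not reported here. Ppargc1b, Esrra, Pnpla2 and the probe sets shared by both Acaa1 genes were named after values were seen. Mmut was matched under its current symbol. Markers of hepatocytes, Kupffer cells, sinusoidal endothelium, stellate cells, cholangiocytes, adipocytes, muscle and neutrophils were summed per array. All lists were chosen with earlier results of these data known. Alternatives were pseudocounts of 16 and 64, quantile, median-centring and cyclic loess scaling, no filter or the 50th percentile, means of probe sets, all probe sets, no intensity trend, a fit of just the 4 arrays compared, a replicate block and each array left out. Plots used matplotlib 3.10.9 (Python 3.11.15).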

Additional observations from a re-analysis of the deposited data

Results flagged for a closer look

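The response to FGF19 and the response to FGF15 differed by their own test in 4 genes of the wider pathway and regulator lists. The log2 difference, FGF19 minus FGF15, was 1.29 for Ppargc1a, 0.49 for Acsl4, -0.57 for Hacl1 and -0.39 for Nudt7. Ppargc1a fell with each hormone and lay lower with FGF15, Acsl4 fell with FGF15 and did not pass the test with FGF19, and Hacl1 rose with FGF15 and did not pass with FGF19. Nudt7 fell with each hormone and lay lower with FGF19. Groups of 2 arrays are too small for a search for outlying arrays.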

How the results depend on the processing

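Every one of the 16 listed genes that rose kept a positive difference for each hormone under all 18 alternatives. Without the intensity trend 9 of the 35 changed with FGF19 and 11 with FGF15. The number lower with FGF19 was 2 with quantile scaling (Crot and Etfb), 2 with cyclic loess (Crot and Slc27a2) and 1 with the stricter filter (Crot), against 0. For FGF19 against FGF15 the count was 1, lower with FGF19, with quantile scaling (Slc27a2), 1 with cyclic loess (Slc27a2) and 1 with the stricter filter (Ppara). Leaving out each array in turn gave 11 to 17 calls with FGF19, 0 to 1 of them lower, 11 to 18 with FGF15, and 0 to 1 for FGF19 against FGF15. Deviations of same-numbered arrays were little correlated (r = -0.02 for FGF19 and vehicle, 0.08 for FGF15 and vehicle, 0.05 for FGF19 and FGF15). With 2 arrays per group the deviations mirror each other, so these values cannot decide whether the numbers pair the arrays. With the replicate number as a block 16 genes rose and 2 (Crot and Slc27a2) fell with FGF19, and 16 rose with FGF15. Taking the mean of all probe sets ended the Acadl and Cpt2 calls for each hormone. Over 46 named genes in 3 comparisons, 2351 of 2481 alternative values kept their side of the threshold, 85 no longer passed it, 45 newly passed it and 0 reversed a called direction, while 89 values that were not called changed sign. The causes of these changes were not tested. With 2 arrays per group, the median interval of an FGF19 minus FGF15 difference in a listed gene was 0.159 to either side on the log2 scale.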
